A study of Mus musculus with 13 samples.

Results

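The mitochondrial ribosomal protein genes were taken as all genes whose symbol starts with Mrpl or Mrps followed by a digit, pseudogene symbols left out. The rule found 78 genes, 49 Mrpl and 29 Mrps, among the 20689 genes whose gene bodies the table lists, and it used no measured value. They lie on 17 chromosomes, 47 on the plus strand and 31 on the minus strand. Mouse neural stem and progenitor cells were studied by ChIP-seq, in which chromatin is precipitated with an antibody and its DNA sequenced. These were dissected from the cortices and ganglionic eminences of E14.5 embryos, grown as neurospheres, which are floating colonies, and taken at passage 5 on day 3.

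The Kat7-deleted cells were Kat7lox/loxNesCreT/+ and the Kat7-intact cells were Kat7+/+NesCreT/+, so that both carried the NesCre transgene, in which nestin regulatory sequence drives the Cre recombinase. An antibody to acetylated lysine 14 of histone H3 (H3K14ac) was used in 4 libraries of intact and 3 of deleted cells. An antibody to KAT7, the acetyltransferase also called HBO1, was used in 3 libraries of intact cells and 1 of deleted cells, and each experiment had 1 IgG library. The values used here are 1 merged column per antibody, and the libraries and genotypes behind each are not given in the sources used. No comparison of genotypes, no IgG level and no replicate error could therefore be given, and no p-value is reported. Intervals are exact 95% intervals, Poisson for a level and binomial for a ratio. They cover counting error only, since reads are not independent molecules and cell isolates could not be told apart.

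Mitochondria hold their own ribosome, which translates the few respiratory chain subunits encoded by mitochondrial DNA. All of its proteins are encoded in the nucleus, made in the cytosol and imported, and assemble on mitochondrially encoded ribosomal RNA into a large and a small subunit. Symbols mostly follow the subunit, but Mrps30 and Mrps18a were counted with the large subunit here. Some proteins descend from bacterial ribosomal proteins and others are found only in mitochondria. The genes are broadly expressed. KAT7 acts within complexes whose scaffold proteins include the BRPF and JADE families, and it acetylates histones, lysine 14 of H3 among them, often near gene starts.

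The table assigns each gene to an expression class: the top 5.00% of genes (Top), the bottom 5.00% (Bottom) and the remaining 18620 genes (Other). Of the 78 genes, 7 were in the Top class (8.97%), 71 in Other and none in Bottom. The 7 were Mrpl13, Mrpl18, Mrpl20, Mrpl28, Mrpl30, Mrpl33 and Mrpl42, all of the large subunit. The sources used do not name the expression data behind the classes. Of the neural progenitor genes looked up, Nes, Sox2, Vim and Fabp7 were in the Top class and Pax6 was in Other. Markers of other cell types were not looked up. Without the source of the classes, these places cannot check the type of the cells used. The gene Mrps36 is held by its name. Its product is known mainly as a part of the alpha-ketoglutarate dehydrogenase complex, so it was left out of the subunit groups below.

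The starts of these genes are compact. The 6 promoter stretches printed here run from 150 bases before to 30 bases after the RefSeq gene start, in build GRCm38.p6. They were chosen because results below turn on them: Mrpl3 had the highest KAT7 level at its CpG island, Mrpl57 a KAT7 level above H3K14ac at a start 76 bases from that of Ska3, Mrps30 and Mrps6 a KAT7 to H3K14ac ratio at the high end, Mrpl36 the lowest ratio, and Mrps11 starts 42 bases from Mrpl46. Capitals mark words that resemble binding sites of 3 factors known from promoters of nuclear genes for mitochondrial proteins. These are NRF1 (GCGCA and GCGC with any base between them), the ETS family (CCGGAAG) and YY1 (AANATGGC), each searched on both strands. The stretches lie at chr9:105053118-105053297 (Mrpl3, plus strand), chr14:57826089-57826268 (Mrpl57, plus), chr13:118387223-118387402 (Mrps30, minus), chr13:73330859-73331038 (Mrpl36, plus), chr16:92058186-92058365 (Mrps6, plus) and chr7:78782981-78783160 (Mrps11, plus).
Mrpl3: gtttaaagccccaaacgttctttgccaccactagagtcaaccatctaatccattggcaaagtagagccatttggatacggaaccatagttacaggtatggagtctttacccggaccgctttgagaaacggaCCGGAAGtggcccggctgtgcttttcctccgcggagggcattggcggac
Mrpl57: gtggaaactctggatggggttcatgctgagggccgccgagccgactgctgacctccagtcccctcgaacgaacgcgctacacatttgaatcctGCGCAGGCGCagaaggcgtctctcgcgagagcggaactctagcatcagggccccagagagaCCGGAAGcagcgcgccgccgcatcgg
Mrps30: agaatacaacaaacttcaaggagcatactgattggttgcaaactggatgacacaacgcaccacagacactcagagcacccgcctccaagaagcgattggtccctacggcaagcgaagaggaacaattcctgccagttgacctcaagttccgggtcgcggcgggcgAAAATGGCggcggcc
Mrpl36: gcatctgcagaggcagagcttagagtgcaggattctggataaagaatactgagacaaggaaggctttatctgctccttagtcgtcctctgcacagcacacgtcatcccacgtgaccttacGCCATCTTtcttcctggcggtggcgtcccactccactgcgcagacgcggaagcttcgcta
Mrps6: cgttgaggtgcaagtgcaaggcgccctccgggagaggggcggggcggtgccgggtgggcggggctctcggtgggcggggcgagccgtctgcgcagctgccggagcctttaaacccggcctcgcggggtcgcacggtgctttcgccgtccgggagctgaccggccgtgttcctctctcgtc
Mrps11: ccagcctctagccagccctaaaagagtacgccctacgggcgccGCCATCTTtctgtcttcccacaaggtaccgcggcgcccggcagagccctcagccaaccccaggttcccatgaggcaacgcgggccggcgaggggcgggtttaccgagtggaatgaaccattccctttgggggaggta

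In these letters, Mrpl3 and Mrpl57 carry an ETS word near the start, Mrpl57 also an NRF1 word, and Mrps30, Mrpl36 and Mrps11 a YY1 word, which in Mrpl36 and Mrps11 is read on the other strand. The Mrps6 stretch carries none of the 3 words. Over the promoter windows of 250 bases before to 50 bases after the start, 69 members were in the RefSeq table, and in 60 of them the RefSeq start lay within 50 bases of the start in the deposited table. Of these 60, 21 (35.0%) held the YY1 word, against 7.32% of 13128 other genes. The ETS word was in 22 (36.7%) against 14.2%, and the NRF1 word in 10 (16.7%) against 7.98%. At least 1 of the 3 words was in 41 (68.3%) against 25.8%. The shares of other genes whose start lies in a CpG island were 9.32%, 21.5%, 13.4% and 37.7% for YY1, ETS, NRF1 and any word. Hits of different words shared bases in 0 of the 60 members. The number of matches depends on base composition. The members' windows had a median of 58.3% G and C, against 58.7% in other genes and 64.3% in other genes with an island, and a median of 20.5 CG pairs against 17 and 25. A match in letters is not a bound factor, and no binding of these factors was measured.

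**Figure D1:**
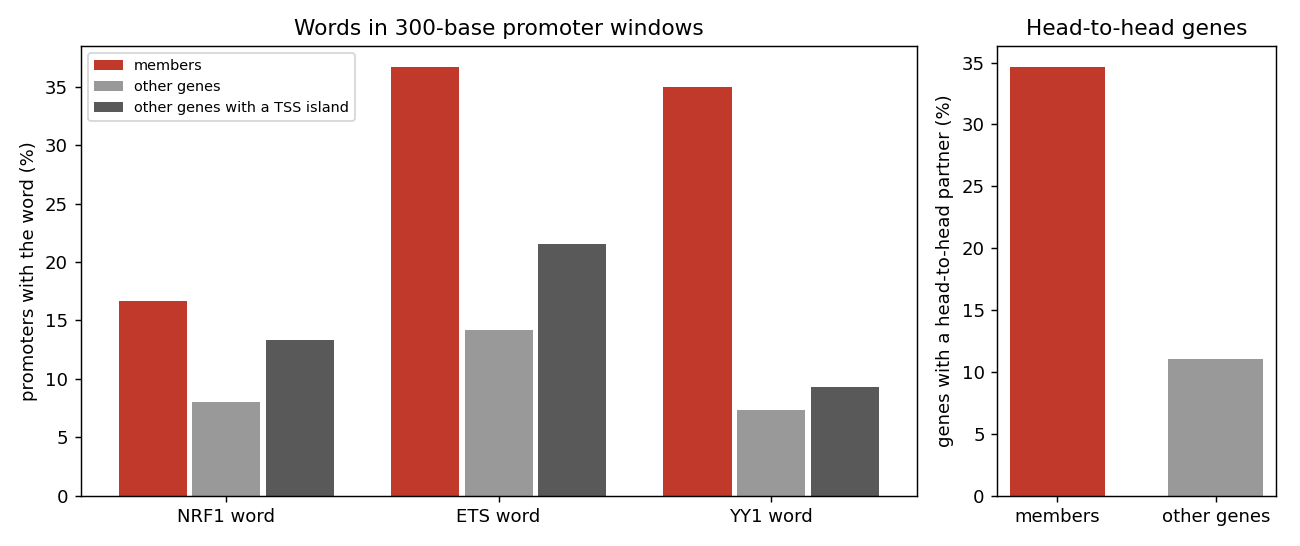
The left panel shows the percentage of 300-base promoter windows that hold each word, for the 60 members, 13128 other genes and the 6853 of those with a CpG island at the start. The right panel shows the percentage of genes, with or without an island, that have a head-to-head partner. In all 4 comparisons the bar of the members is the tallest.

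A head-to-head partner was more frequent among the members than among other genes. A gene on the other strand, pointing away, started within 1000 bases upstream of 27 of the 78 (34.6%), against 11.02% of 20611 other genes. Among genes with a usable CpG island at the start, the counts were 23 of 66 members and 1745 of 9810 other genes, a smaller difference. The partners named next were chosen after the list had been seen, and the functions of the partners were not counted. Others, such as Lrrc46, Mtbp and Gga3, are not described. Mrps12, a decoding-centre protein of the small subunit, starts 187 bases from Sars2, the mitochondrial seryl-tRNA synthetase. Mrpl43 starts 116 bases from Twnk, the mitochondrial DNA helicase, and Mrpl47 starts 308 bases from Ndufb5, a subunit of respiratory complex I. Mrps27 starts 108 bases from Ptcd2, a protein of mitochondrial RNA processing. Mrpl49 lies 137 bases from Fau, whose product yields a cytosolic ribosomal protein, Mrpl32 205 bases from the proteasome gene Psma2, and Mrpl40 113 bases from the histone chaperone gene Hira. The pair Mrpl46 and Mrps11, of the large and small subunit, start 42 bases apart and were the only members facing each other.

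Levels are given in RPKM, reads scaled to the length of the region and to the read total of the column, as deposited. A CpG island, a stretch rich in CG pairs, held the transcription start site (TSS) of 66 of the 78 members. Such an island was found for 9876 genes of the series that passed the same filters. The members' islands were 249 to 1454 bases long with a median of 508, against 678 in other genes, and held 9 to 176 H3K14ac reads (median 36) and 14 to 141 KAT7 reads (median 40). At this depth the interval of a single island is wide. In 23 members the island held more than 1 TSS, so its reads cannot be assigned to the member alone. The 12 members without such an island were Mrpl11, Mrpl16, Mrpl19, Mrpl22, Mrpl34, Mrpl35, Mrpl51, Mrps11, Mrps12, Mrps21, Mrps31 and Mrps36, and several of these missed it narrowly. The nearest island was 3 bases from the start of Mrps11, 27 from Mrpl11 and 241 from Mrps12.

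At the TSS islands the median KAT7 level of the members was above that of matched genes, and the median H3K14ac level lay close to it. Matched genes were all non-members of the same expression class whose island was within a factor of 1.2 in length. For KAT7 the members' median was 0.560 RPKM, with a range of 0.267 to 1.14, against 0.496 in matched genes, a factor of 1.13. KAT7 was above the matched median in 43 of 66 members (all genes, 50.2%), above the 90th percentile in 14 (all genes, 10.3%) and below the 10th percentile in 3 (all genes, 10.1%). The count of 14 of 66 became 8 of 43 for islands with exactly 1 TSS and 9 of 43 without head-to-head genes. Against islands of Top-class genes of similar length it became 10 of 66. The upper end was thus held by more members than the background share, and the lower end by fewer.

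For H3K14ac the members' islands had a median of 0.491 RPKM and a range of 0.209 to 0.879, against 0.461 in matched genes, a factor of 1.06. H3K14ac was above the matched median in 34 of 66 (all genes, 50%), above the 90th percentile in 4 (all genes, 10%) and below the 10th percentile in 2 (all genes, 9.94%). These shares were near or under the background at both ends. The H3K14ac factor turned to 0.976 over the 43 members whose island holds exactly 1 TSS, and to 0.903 against islands of Top-class genes of similar length. Against those Top-class islands the KAT7 factor was 1.03, with 35 of 66 members above the median.

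**Figure D2:**
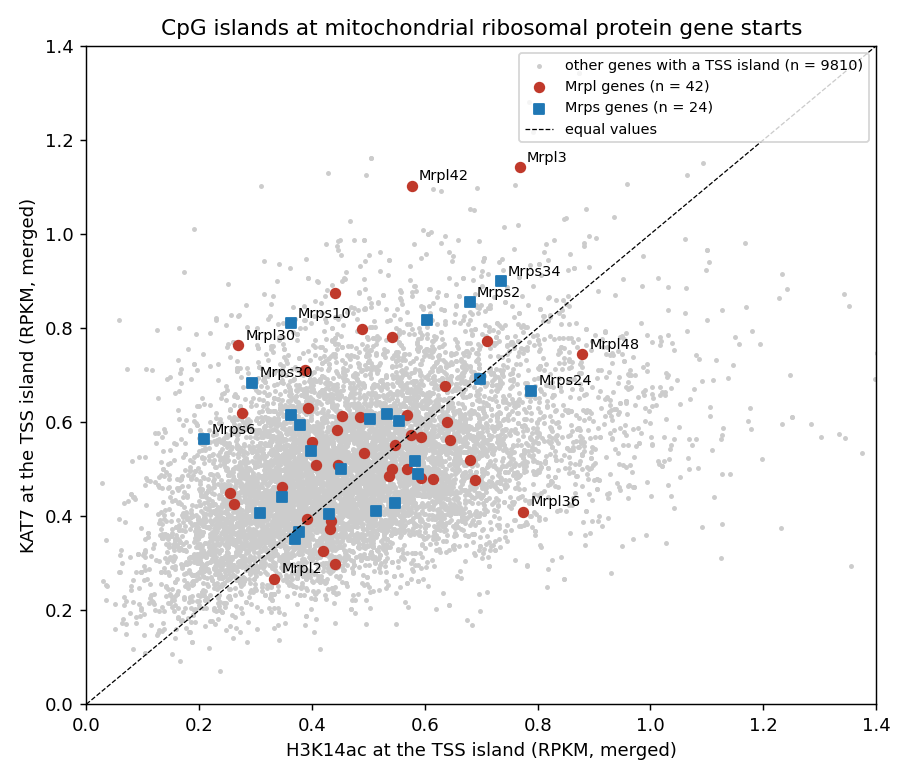
Each point is the CpG island at the start of a gene, with its merged H3K14ac level (x axis, RPKM) and KAT7 level (y axis, RPKM), for 42 Mrpl genes, 24 Mrps genes and other genes, and the dashed line marks equal values. The axes end at 1.4 RPKM, beyond which 14 islands of other genes lie. Mrpl3 and Mrpl42 stand highest in KAT7, and Mrpl36 and Mrpl48 lie to the lower right of the line.

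Among single members, Mrpl3, a large-subunit protein with a bacterial counterpart, had the highest KAT7 level, 1.14 RPKM (0.809 to 1.57, 38 reads), above all 559 islands of its matched set. Its H3K14ac level was 0.768 RPKM (0.506 to 1.12, 27 reads). Mrpl42 followed with 1.103 RPKM of KAT7 (0.780 to 1.51), so that the intervals of these neighbours in the order overlap. Next by the lower bound of the interval came Mrps34 with 0.900 (0.705 to 1.13), Mrpl21 with 0.876 (0.674 to 1.12), Mrps2 with 0.855 (0.635 to 1.13) and Mrpl57 with 0.797 (0.639 to 0.982). These 6 genes span both subunits, and their intervals overlap throughout, which leaves their order unsettled. At the other end, by the upper bound, Mrpl2 had 0.267 RPKM of KAT7 (0.161 to 0.417), Mrpl10 0.298 (0.170 to 0.484), Mrpl40 0.373 (0.291 to 0.470) and Mrps18b 0.411 (0.313 to 0.530). The interval of Mrpl2 ends below the intervals of all 6 genes at the upper end. The islands of Mrps34, Mrpl21, Mrpl57, Mrpl10, Mrpl40 and Mrps18b each held more than 1 TSS.

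The order by H3K14ac was a different one. Mrpl48 had the highest level, 0.879 RPKM (0.754 to 1.02, 176 reads), at the 98.7th percentile of its matched islands. The next by lower bound were Mrps24 with 0.789 (0.594 to 1.03), Mrpl36 with 0.775 (0.599 to 0.986), Mrps34 0.735 (0.565 to 0.940), Mrpl53 0.710 (0.550 to 0.901) and Mrpl14 0.636 (0.532 to 0.755). Mrps34 alone of these was also among the 6 highest in KAT7. The lowest H3K14ac was found at Mrps6, 0.209 RPKM (0.140 to 0.300), and low upper bounds were also found at Mrpl30 with 0.269 (0.154 to 0.436), Mrpl39 with 0.276 (0.177 to 0.410) and Mrps30 with 0.294 (0.198 to 0.420). KAT7 at these 4 islands was 0.564, 0.763, 0.619 and 0.684 RPKM, in the same order, each above the median of its matched islands. Of the islands named in this order, those of Mrpl48, Mrps34, Mrpl14, Mrps6 and Mrpl30 held more than 1 TSS. Across the 66 islands the Pearson correlation of H3K14ac with KAT7 was 0.359 (Spearman 0.313), given as a description over genes of 2 merged columns.

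The ratio of KAT7 to H3K14ac is scaled by the 2 read totals, so a ratio of 1 has no meaning of its own, and only its place among other genes is informative. At the islands the members' median ratio was 1.09 against 1.06 in matched genes, and 35 of 66 were above the matched median (all genes, 50.1%). The interval lay above 1 in 9 members (all genes, 14.7%) and below 1 in 1 member (all genes, 8.3%). The ratio was above the 90th percentile in 8 (all genes, 10%) and below the 10th in 1 (all genes, 9.96%). The difference in median log2 ratio of 0.042 became 0.13, with 26 of 43 above, for islands with exactly 1 TSS and for genes without a head-to-head partner. The spread among members was wide, from 0.528 to 2.84. Mrps6, a small-subunit protein with a bacterial counterpart, had 74 KAT7 and 29 H3K14ac reads, a ratio of 2.70 (1.73 to 4.30). Of the others with a high lower bound, Mrpl30 had a ratio of 2.84 (1.57 to 5.40), Mrps30 2.33 (1.49 to 3.71), Mrpl39 2.25 (1.36 to 3.82), Mrps10 2.24 (1.38 to 3.71) and Mrpl21 1.99 (1.29 to 3.11). Mrpl36, a large-subunit protein with a bacterial counterpart, had 33 KAT7 and 66 H3K14ac reads, a ratio of 0.528 (0.337 to 0.814), and no other member had an interval below 1. Mrpl18 had 0.778 (0.573 to 1.05), Mrps18b 0.799 (0.560 to 1.14) and Mrpl48 0.847 (0.674 to 1.06). The intervals of Mrpl36 and of the 6 genes with the highest ratios do not overlap. Mrps6, Mrpl30, Mrpl21, Mrpl18, Mrps18b and Mrpl48 had islands with more than 1 TSS.

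Islands at starts with a partner gene had a slightly lower KAT7 median than the others. In the 23 members with a head-to-head partner and an island, the median KAT7 level was 0.517 RPKM, and in the 43 without a partner it was 0.562. H3K14ac had medians of 0.514 and 0.486, and the ratio 1.01 and 1.16. In other genes the medians with and without a partner were 0.482 and 0.487 for KAT7 and 1.06 in both groups for the ratio. Islands with a partner were longer, with medians of 640 against 486 bases in members and 803 against 650 in other genes. Length was not matched here. Promoters with an NRF1 word had a median island KAT7 level of 0.570 RPKM (10 members) and those without 0.513 (40 members). For the ETS word the medians were 0.565 (18 members) and 0.509 (32), and for the YY1 word 0.561 (16) and 0.514 (34). The ranges overlap widely for each word, from 0.267 to 1.14 RPKM in the members without an NRF1 word. In other genes the corresponding KAT7 medians were 0.475 and 0.491 for NRF1, 0.515 and 0.482 for ETS, and 0.516 and 0.485 for YY1.

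Gene bodies run from the start to the end of each gene. They were measured for 64 members of 15774 genes, and the members are short genes, 825 to 121712 bases with a median of 7145.5 over all 78, against 16659 for all genes. In 13 members the gene body shares bases with another gene body, and these were left out: Mrpl12, Mrpl19, Mrpl24, Mrpl33, Mrpl41, Mrpl48, Mrpl49, Mrpl53, Mrps6, Mrps18b, Mrps25, Mrps27 and Mrps28. Mrpl33 lies wholly under another listed gene body and had 0 reads in both columns, as did all 1123 listed bodies without a base of their own, against 17 of 2957 overlapping bodies that have some. Mrpl36 was below the minimum level, with 3 H3K14ac reads and 1 KAT7 read over its gene body, although the island at its start held 66 and 33 reads and no other listed gene overlaps it. Most of that island lies inside the gene body, and short elements inside the body held 16 and 20 H3K14ac reads. The body count of 3 thus does not hold all reads over its bases and is no measure of a low level. The cause was not tested. The 64 bodies held 48 to 3063 H3K14ac reads and 69 to 3278 KAT7 reads, so that most intervals are narrower than at the islands.

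Over gene bodies the members had more KAT7 and less H3K14ac than matched genes, by small amounts that pointed the same way in most members. The median KAT7 level was 0.424 RPKM, with a range of 0.219 to 0.756, against 0.398 in matched genes, a factor of 1.07. KAT7 was above the matched median in 51 of 64 (all genes, 50.1%), above the 90th percentile in 12 (all genes, 10.1%) and below the 10th percentile in 2 (all genes, 10.1%). The median H3K14ac level was 0.355 RPKM, with a range of 0.156 to 0.575, against 0.369, a factor of 0.960. H3K14ac was above the matched median in 19 of 64 (all genes, 49.9%), above the 90th percentile in 2 (all genes, 10.1%) and below the 10th percentile in 10 (all genes, 10.1%). These counts moved with the comparison. The 12 of 64 high in KAT7 became 0 of 60 against Top-class genes and 6 of 42 in members of at least 5000 bases. The 10 of 64 low in H3K14ac became 5 of 64 with X and Y included or against genes with a TSS island. They became 17 of 60 against Top-class genes and 18 of 64 without length matching. Summed over all 64 bodies, KAT7 was at 0.422 RPKM (0.417 to 0.426) and H3K14ac at 0.353 (0.349 to 0.357). For scale, the median over regions that the table lists as H3K9me3 domains was 0.382 RPKM of H3K14ac and 0.385 of KAT7 in the first set, over CpG islands near a TSS 0.461 and 0.491, and over all gene bodies 0.377 and 0.396. How much of either column is background was not tested.

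The comparison group decided the direction for KAT7. Against gene bodies of the Top class of similar length, the KAT7 factor was 0.953, with 11 of 60 members above the median, and the H3K14ac factor was 0.931, with 9 of 60 above. When matched genes were limited to those with a TSS island, the KAT7 factor was 1.03, with 39 of 64 members above the median. The class Other, from which most matched genes came, spans 18620 genes, and expression was not matched within it. The 6 Top-class members with a usable body had a median of 0.429 RPKM of KAT7 and 0.365 of H3K14ac, against 0.436 and 0.390 in 784 other Top-class genes. The 58 members in Other had 0.424 and 0.353, against 0.399 and 0.381 in 14050 other genes. The H3K14ac median of the members was the lower in both classes, and their KAT7 median the higher in Other and the lower in Top.

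The ratio of KAT7 to H3K14ac set the members apart from matched genes more than either level. Its median over gene bodies was 1.22 against 1.07 in matched genes, and 59 of 64 members were above the matched median (all genes, 50.1%). It was above the 90th percentile in 21 members (all genes, 10.1%) and below the 10th percentile in 0 (all genes, 10.1%). The interval lay above 1 in 44 of 64 (68.8%, all genes 34.2%) and below 1 in 0 (all genes, 9.06%). The KAT7 level exceeded the H3K14ac level in 63 of 64 members (all genes, 65.9%, not matched for class or length), with Mrps12 as the exception at 0.938 (0.720 to 1.22). Against Top-class genes 42 of 60 members were still above the median, and the difference in log2 ratio fell from 0.19 to 0.066. This ratio joins the differences in both columns and is not a measurement independent of them.

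**Figure D3:**
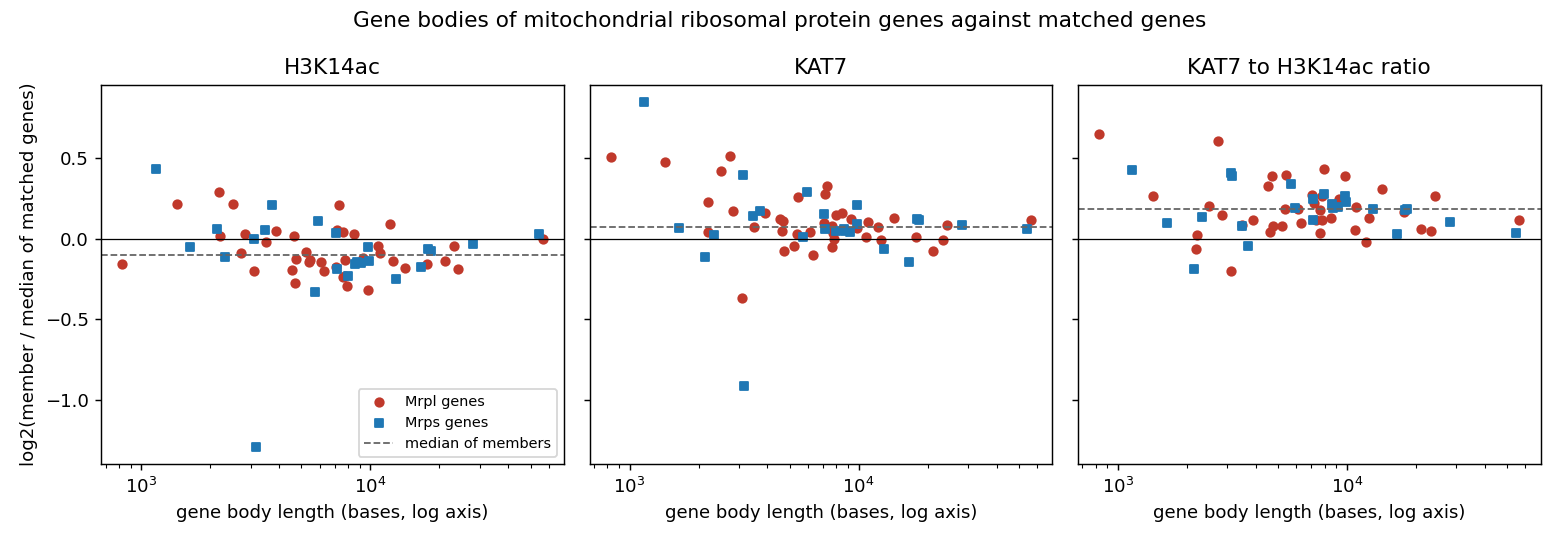
Each point is the gene body of 1 member, placed by its length (x axis, log scale) and by the log2 of its value over the median of its matched genes (y axis), for H3K14ac, KAT7 and their ratio. The dashed line is the median of the 64 members: it lies below 0 for H3K14ac and above 0 for KAT7 and the ratio, and the lowest point in the H3K14ac and KAT7 panels is Mrps17.

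The difference held across gene lengths for the ratio and less so for H3K14ac. In 22 members under 5000 bases the ratio was 1.18 against 1.07, with 18 above the matched median. In 26 members of 5000 to 10000 bases it was 1.24 against 1.07, with 26 above. In 16 members of 10000 bases and over it was 1.18 against 1.07, with 15 above. H3K14ac was 0.392 against 0.390 RPKM in the shortest group, 0.334 against 0.367 in the middle group and 0.348 against 0.368 in the longest. The lower H3K14ac level was thus seen in members of 5000 bases and over, of which 8 of 42 were above the matched median (factor 0.915). A short gene body contains a larger share of start-proximal sequence, and over the members both levels declined with log length (Pearson -0.40 for H3K14ac and -0.48 for KAT7).

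Single gene bodies with the highest KAT7 were short. Mrps34, a mitochondria-specific small-subunit protein, had 0.756 RPKM of KAT7 (0.625 to 0.906) and 0.575 of H3K14ac (0.464 to 0.703), the highest of the members in both. Both its body and its island were thus high, though these regions share bases. Mrpl34 had 0.622 of KAT7 (0.484 to 0.787), Mrpl32 0.594 (0.518 to 0.678) and Mrpl57 0.556 (0.480 to 0.642). Mrpl32, whose product is cut by an inner-membrane protease before it joins the large subunit, had a ratio, KAT7 over H3K14ac, of 1.62 (1.31 to 2.02), the highest of the 64. Next by lower bound, Mrpl22 had 1.45 (1.25 to 1.67), Mrpl21 1.396 (1.23 to 1.59) and Mrpl45, related to the import protein TIM44, 1.34 (1.205 to 1.48). Mrpl21 and Mrpl22 combined a low H3K14ac level, 0.294 and 0.300 RPKM, at the 3.61st and 4.66th percentile, with KAT7 levels of 0.411 and 0.434, at the 67.9th and 84.1st percentile. The lowest ratios by value were those of Mrps12 (0.938), Mrpl28 (1.01) and Mrpl51 (1.02). The upper bound picks narrow intervals, and by it came Mrps9 with 1.07 (1.02 to 1.13), Mrpl14 with 1.06 (0.9497 to 1.18), Mrpl1 with 1.13 (1.08 to 1.19) and Mrps5 with 1.101 (0.996 to 1.22). Of these Mrpl1 was at the 88.3rd percentile of its matched genes.

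Mrps17, a small-subunit protein with a bacterial counterpart, was the lowest of the 64 in both columns, with 0.156 RPKM of H3K14ac (0.122 to 0.197) and 0.219 of KAT7 (0.177 to 0.269). Its H3K14ac level was below that of all 654 matched gene bodies, while its island had 0.452 and 0.500 RPKM, near the matched medians. The cause of the low gene body counts was not tested. Mrpl51 and Mrpl17 followed Mrps34 in the lower bound of H3K14ac, with 0.480 (0.406 to 0.563) and 0.426 RPKM (0.387 to 0.468), and Mrps18c had a low level of 0.294 (0.258 to 0.334). Mrps5, Mrps22 and Mrpl27 had low KAT7 levels of 0.356, 0.377 and 0.370 RPKM. Apart from Mrps17, the KAT7 levels of the members thus ran from 0.356 to 0.756 RPKM.

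Several members with a known special role can be placed by these values. Mrpl12, which also binds the mitochondrial RNA polymerase, had 0.680 RPKM of H3K14ac (0.499 to 0.904) and 0.520 of KAT7 (0.360 to 0.726) at its island. Mrps12 had no island at its start, and its gene body had 0.412 of H3K14ac and 0.387 of KAT7. Mrpl58, a peptidyl-tRNA hydrolase that frees stalled ribosomes, had 0.548 and 0.552 at the island and 0.382 and 0.478 over the body, where KAT7 was at the 95.8th percentile. Mrpl44, which has a fold related to RNase III, had a body ratio of 1.41 (1.2003 to 1.67), at the 97.0th percentile, and an island ratio of 0.920 (0.529 to 1.59). Mrps16 had 0.379 RPKM of H3K14ac and 0.593 of KAT7 at its island and a body ratio of 1.17 (0.908 to 1.51). The 3 homologues of bacterial S18 differed at their islands, where the KAT7 to H3K14ac ratio was 1.69 (0.938 to 3.12) at Mrps18a, 0.799 at Mrps18b and 0.939 (0.598 to 1.47) at Mrps18c, with overlapping intervals. At the level of gene bodies, the ratio was 1.21 for Mrps18a and 1.37 for Mrps18c. In the subunit groups below, Mrps18a and Mrps18b were counted as mitochondria-specific although all 3 are homologues of bacterial S18.

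**Figure D4:**
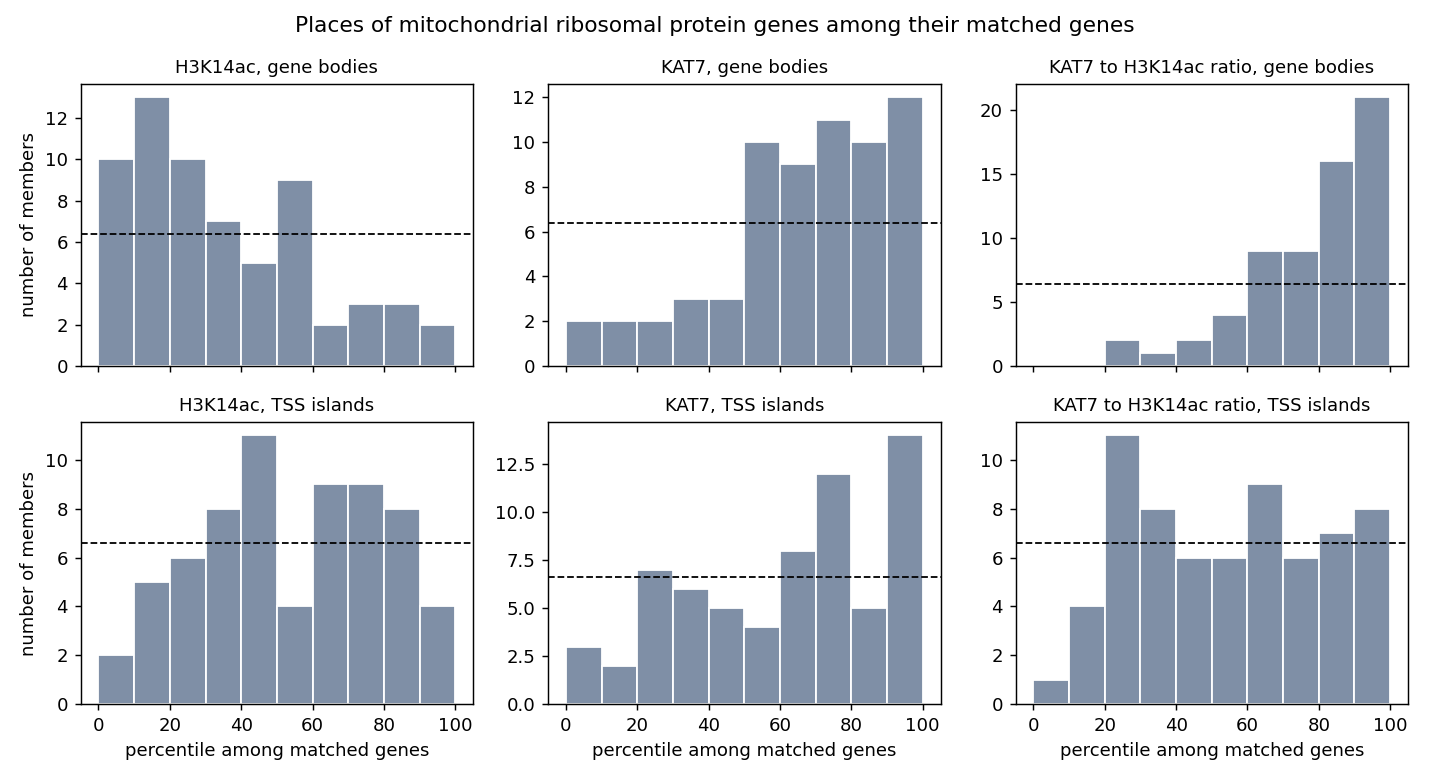
The histograms count members by the percentile of their value among their matched genes (x axis), for 64 gene bodies (upper row) and 66 TSS islands (lower row). The dashed line is the number per bin if members were spread evenly: the gene body ratio is crowded into the highest bin with 21 members, while the island ratio is spread over the range.

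The subunit proteins were split into 4 groups. Over gene bodies the median ratio was 1.22 in 24 large-subunit genes with a bacterial counterpart, 1.22 in 18 mitochondria-specific ones, 1.23 in 14 small-subunit genes with a bacterial counterpart and 1.22 in 7 mitochondria-specific ones. Of these, 22, 17, 12 and 7 were above the matched median (all genes, 50.1%). KAT7 was above the matched median in 16 of 24, 17 of 18, 11 of 14 and 6 of 7 (all genes, 50.1%). H3K14ac was above it in 4 of 24, 8 of 18, 5 of 14 and 2 of 7 (all genes, 49.9%). At the islands the groups' median KAT7 levels were 0.557, 0.569, 0.593 and 0.491 RPKM (23, 21, 13 and 9 genes), against 0.495 to 0.496 in matched genes, and the last of these 4 values lay below them. The groups of 7 and 9 genes are small, and differences between the groups were not tested. By symbol, the median body ratio was 1.22 in both 40 Mrpl and 24 Mrps genes.

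The table also gives 2001-base windows before and after each gene's own body, usable for plus-strand genes alone and matched on class only. Such a window can run over a neighbouring gene. Head-to-head partners, more frequent among the members, were not matched for. Before the start, 45 members had a median KAT7 level of 0.451 RPKM against 0.410 in matched genes, and 33 were above (all genes, 49.6%). H3K14ac was 0.377 in both, with 20 of 45 above (all genes, 49.3%). The ratio's interval lay above 1 in 13 of 45 (all genes, 14.3%). Mrpl57 had the highest ratio, 1.78 (1.36 to 2.33), from 153 KAT7 and 91 H3K14ac reads, followed by Mrpl16 with 1.66 (1.25 to 2.21) and Mrpl2 with 1.62 (1.21 to 2.18). The window of Mrpl57 runs over the start of Ska3, 76 bases upstream, while Mrpl16 and Mrpl2 have no head-to-head partner. Mrpl2 thus had a ratio of 1.62 in the window and 0.803 (0.418 to 1.52) at its island. After the transcription end site, 44 members had 0.425 RPKM of KAT7 against 0.410, with 23 above (all genes, 47.8%), and 0.358 of H3K14ac against 0.385, with 10 above (all genes, 48.4%). The KAT7 count lay near the background share. There the ratio was 1.21 against 1.07, with 32 of 44 above (all genes, 50.1%), and Mrps7 had the highest, 1.52 (1.16 to 1.98). Its interval lay above 1 in 8 of 44 (all genes, 12%).

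Short elements of at most 160 bases, listed in the table as IS or Enh, gave a finer view of the starts. Just upstream of the start, from -250 to -1, 21 elements of 20 members had a summed H3K14ac level of 0.261 RPKM (0.215 to 0.314). The corresponding levels were 0.381 (0.376 to 0.386) in 3009 elements of other genes and 0.318 (0.300 to 0.336) in 190 elements of Top-class genes. The interval of the members lay below that of other genes and overlapped that of Top-class genes. KAT7 there was 0.520 RPKM (0.452 to 0.595), against 0.554 (0.547 to 0.560) and 0.536 (0.513 to 0.561). The ratio was 1.99 (1.57 to 2.53), against 1.45 (1.43 to 1.48) in other genes and 1.69 (1.57 to 1.81) in Top-class genes. In the 16 elements of members without a head-to-head partner the H3K14ac level was 0.229 (0.181 to 0.287), as against 0.389 in other genes without one. The 21 elements mix the IS and Enh classes, and the mix was not matched to that of other genes. Over all elements listed near a TSS, of any length, median H3K14ac was 0.543 RPKM for IS and 0.434 for Enh.

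The low H3K14ac level upstream rested on very few reads in single members. For example, the element at Mrps16 held 1 H3K14ac and 6 KAT7 reads, that at Mrps9 2 and 10, and that at Mrpl16 2 and 13. The elements at Mrpl38 and Mrps22 went the other way, with 8 H3K14ac and 4 KAT7 reads and with 7 and 3. From the start to 150 bases the order was the other way for H3K14ac: 4 elements of 4 members, 76 H3K14ac and 49 KAT7 reads in all, had 1.15 RPKM (0.905 to 1.44), against 0.590 (0.580 to 0.599) in other genes. KAT7 there was 0.782 (0.579 to 1.03) against 0.626, and the ratio 0.681 (0.466 to 0.989) against 1.06. All 4 elements were of the IS class, and class was not matched. From 150 to 1000 bases, 18 elements of 14 members had 0.808 RPKM of H3K14ac (0.715 to 0.910) and 0.757 of KAT7 (0.665 to 0.859), against 0.767 and 0.769 in other genes. Top-class genes had 1.06 and 0.939 there, above the intervals of the members. Elements at Mrpl36, at 302 and 432 bases, held 16 and 20 H3K14ac reads and 12 and 4 KAT7 reads, and the second of them had a ratio of 0.211. At Mrps2 the element at 359 bases held 18 H3K14ac and 22 KAT7 reads, a KAT7 level of 1.91 RPKM.

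**Figure D5:**
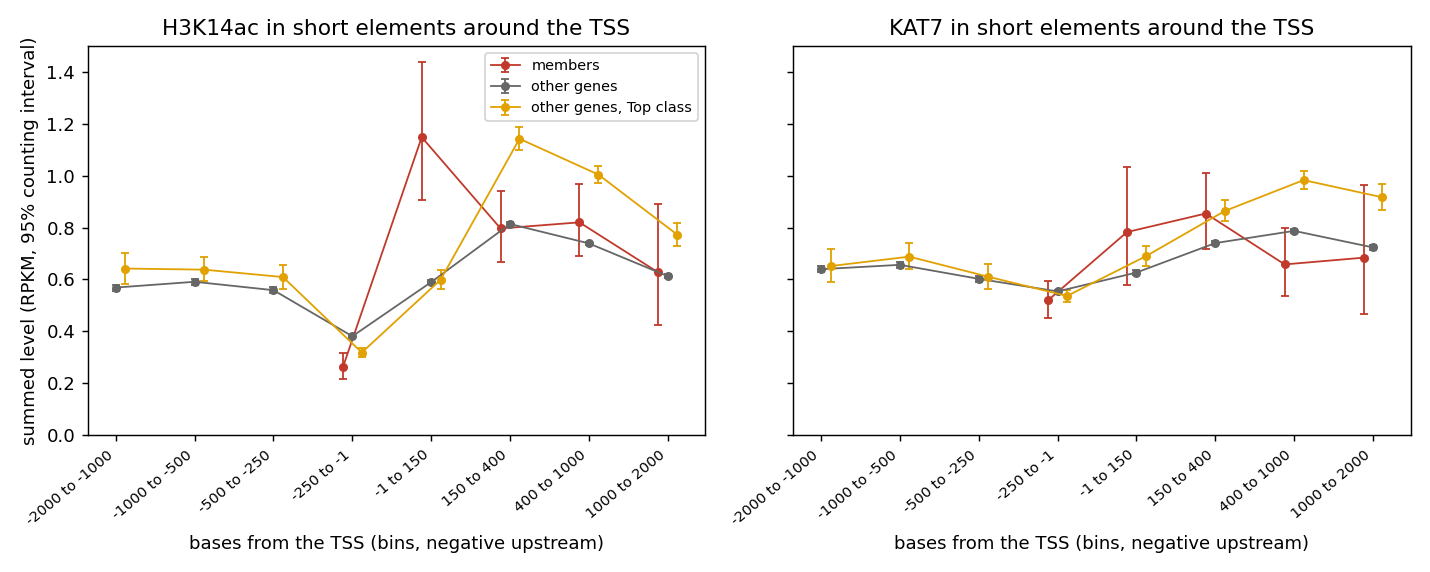
The summed level of short elements (y axis, RPKM, with 95% counting intervals) is plotted by distance from the nearest TSS (x axis, bins of unequal width) for members, other genes and other genes of the Top class, with bins of under 3 elements left out. In both panels all 3 groups are lowest just upstream of the start and higher downstream. The lowest level in members is 0.261 RPKM for H3K14ac and 0.520 for KAT7. In the KAT7 panel the members stay within 0.520 to 0.854 RPKM.

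The gene body and the start of the same gene were only loosely related. Over the 53 members with both, the Pearson correlation between body and island was 0.310 for H3K14ac, 0.265 for KAT7 and 0.426 for the log2 ratio (Spearman 0.252, 0.139 and 0.451). Within gene bodies H3K14ac and KAT7 correlated at 0.784 over 64 members (Spearman 0.649). The points share both merged columns and their read totals, and the correlation within gene bodies also shares region lengths. Each island holds the start of its gene, so it also shares bases with the gene body. Mrpl21 and Mrps10 had a high ratio in both places, with body ratios of 1.396 and 1.28, at the 99.2nd and 93.1st percentile. Mrpl22, without an island, and Mrpl45, with an island ratio of 1.63 (0.722 to 3.86), were high over the body.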

How the data were processed

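Per the file headers, the deposited table lists genomic regions with counts and RPKM for 1 merged H3K14ac and 1 merged KAT7 column. RPKM as deposited equals the count over 1 read total per column and over the listed region length less 1 base. The read totals were 141734087 for H3K14ac and 134111848 for KAT7. The relation held within a relative tolerance of 1e-06 in 100% of regions with reads. Per the submitters' processing notes the build was mm10 and Bowtie2, SAMtools, Picard, deepTools and featureCounts were used; their roles and versions are not stated. The planned genotype test needs values per library and was not run. Regions used were autosomal, shared no bases within their class, had a mean of at least 0.1 RPKM and at most 5 RPKM in each column. Comparison genes (at least 20) shared the expression class and a length within a factor of 1.2. Minus-strand windows (10290 promoters with a length below 0) were left out. Symbols came from RefSeq GRCm38.p6 for 96.7% of genes. On simulated gene bodies, the factors of medians against matched genes and the share of ratio intervals that exclude 1 were checked. Percentile places and counts were not checked in this way. Python 3.11.15, numpy 2.4.6, pandas 2.3.3 and scipy 1.17.1 were used. Genes named in full were the highest and lowest by interval bound, plus Mrpl12, Mrps12, Mrpl58, Mrpl44, Mrps16 and the Mrps18 genes; others were named after their values were seen. The members and lists were chosen with earlier results of these data known. Alternatives covered length window, expression class, minimum level, sex chromosomes, overlaps, summed counts and comparison genes.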

Additional observations from a re-analysis of the deposited data

How the results depend on the processing

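Over gene bodies H3K14ac stayed below and the ratio above matched genes in all 12 alternatives run, and KAT7 stayed above in 11 of 12. At the islands KAT7 stayed above in all 12, and H3K14ac in 10 of 12. The gene body H3K14ac factor (0.960) became 0.932 without length matching, 0.940 with summed counts, 0.931 against Top-class genes, 0.975 against genes with a TSS island and 0.915 in members of at least 5000 bases. The gene body KAT7 factor (1.07) became 1.05 with summed counts, 1.03 against genes with a TSS island and 0.953, reversed, against Top-class genes. The difference in log2 ratio over gene bodies (0.19) became 0.22 without length matching, 0.15 with summed counts, 0.066 against Top-class genes and 0.11 against genes with a TSS island. At islands the H3K14ac factor (1.06) was reversed to 0.976 for islands with exactly 1 TSS and to 0.903 against Top-class genes, the KAT7 factor (1.13) became 1.03 against Top-class genes, and the difference in log2 ratio (0.042) became 0.13 both for islands with exactly 1 TSS and without head-to-head genes. The count of gene bodies above the 90th percentile for KAT7 (12 of 64) became 0 of 60 against Top-class genes and 6 of 42 in members of at least 5000 bases. Below the 10th percentile for H3K14ac (10 of 64) it became 17 of 60 against Top-class genes and 18 of 64 without length matching. It became 5 of 64 with X and Y included and 5 of 64 against genes with a TSS island. Counts of gene bodies above the 90th percentile for H3K14ac (2) ran from 0 to 5 and below the 10th for KAT7 (2) from 0 to 7. At islands the count above the 90th percentile for KAT7 (14 of 66) became 8 of 43 for islands with exactly 1 TSS and 9 of 43 without head-to-head genes. Against Top-class genes that count became 10 of 66. The H3K14ac counts at islands (4 above, 2 below, of 66) fell to 1 of 66 and 0 of 43 at the lowest. Comparisons with Top-class genes, with island genes, by length, without head-to-head genes and without Mrpl3 were added after the data had been seen. The cause of these changes was not tested. No paired analysis was possible because each antibody has 1 merged column without replicate numbers. Island read counts of 9 to 176 limit single islands.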

Other observations

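Related genes that serve the mitochondrial ribosome but carry other symbols were described by the same measures. Over gene bodies KAT7 relative to H3K14ac exceeded the matched median in 18 of 19 mitoribosome assembly factors, 9 of 10 mitochondrial translation factors, 12 of 16 mitochondrial aminoacyl-tRNA synthetases and 3 of 3 mitoribosomal proteins without an Mrp symbol (all genes, 50.1%). Their median ratios were 1.15, 1.15, 1.12 and 1.13, against 1.06 to 1.07 in matched genes and 1.22 in the 64 Mrpl and Mrps genes. KAT7 over gene bodies was above the matched median in 14 of 19, 10 of 10, 10 of 16 and 2 of 3 (all genes, 50.1%). Among assembly factors Ddx28, a DEAD-box helicase, had the highest gene body KAT7 level with 0.522 RPKM (0.437 to 0.620), and among translation factors it was Tufm, the mitochondrial elongation factor Tu, with 0.506 (0.442 to 0.576). Among synthetases Lars2 had 0.475 RPKM (0.463 to 0.487), at the 99.7th percentile of matched genes, while Sars2, the head-to-head partner of Mrps12, had 0.326 (0.299 to 0.355), at the 4.36th.

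At the TSS islands these lists were mixed. KAT7 was above the matched median in 13 of 22 assembly factors, 11 of 15 translation factors, 11 of 14 synthetases and 2 of 4 of the other mitoribosomal proteins (all genes, 50.2%). The counts of 13 of 22 and 2 of 4 lay near that share. Lrpprc, which stabilises mitochondrial messenger RNA, had 0.172 RPKM of KAT7 (0.1002 to 0.275) and 0.440 of H3K14ac, a ratio of 0.391 (0.210 to 0.694). Gadd45gip1, a large-subunit protein also called mL64, had 1.02 RPKM of H3K14ac and 0.507 of KAT7, a ratio of 0.497 (0.330 to 0.735). Mterf4 and Malsu1, both assembly factors of the large subunit, had the highest KAT7 among the assembly factors, with 0.986 (0.683 to 1.38) and 0.866 RPKM (0.670 to 1.102). The lists were not compared with one another by a test.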
